A study of Rattus norvegicus with 12 samples.

Results

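Ion channel genes outside the set most often studied in atrial muscle were measured in appendages of the left and right atria of male Sprague-Dawley rats that had received an aorto-caval shunt or sham surgery. A gene belonged when the array annotation gave a probe set that single gene symbol and the symbol began with Kcn, Cacn, Scn or Hcn (a digit following the last 2). The 12 genes Kcnip2, Kcnd2, Kcnd3, Kcna4, Kcna5, Kcnj2, Kcnj3, Kcnj5, Kcnk3, Kcnq1, Kcnh2 and Kcne1 were left out. By this rule 102 of the 14217 genes on the array belonged: 63 potassium channel genes, 24 calcium channel genes, 12 sodium channel genes and 3 Hcn genes. Each gene was represented by the probe set with the highest mean over the 12 arrays, and values are log2 RMA values, so that a difference of 1 is 2-fold. The names carry the family and not the gating: inward rectifier, leak and calcium-activated channels and auxiliary subunits are among them.

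The 4 groups were left atrium after shunt, left atrium after sham operation, right atrium after shunt and right atrium after sham operation, each with 3 arrays. All tissue was taken 28 days after the operation from rats that the labels give as 225 to 275 g, and each array carried RNA pooled from 2 tissues. A shunt between aorta and vena cava loads the heart with volume, and the sham rats underwent surgery without it. The source entry of each sample names 1 atrium, while the tissue entry also lists ventricles.

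Voltage-gated sodium and calcium channels carry the inward currents of the cardiac action potential, and potassium channels carry the outward currents that end it and hold the resting potential. Hcn channels open on hyperpolarisation and carry the pacemaker current. Pore-forming subunits work with auxiliary subunits (Cacnb, Cacna2d and Cacng for calcium channels, Scn beta subunits for sodium channels, Kcne, Kcnab and Kcnip for potassium channels) that set trafficking and gating.

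Array medians lay between 5.44 and 5.47. Of the 102 channel genes, 28 had a mean at or above the median of all probe-set means (5.46) and 74 lay below it, and no detection calls were used, so those below may hold little more than background. The atrial cardiomyocyte marker list averaged 12.01 to 12.13 on every array. The ventricular list of 7 genes averaged 8.24 to 8.54 in left shunt, 7.76 to 8.03 in left sham, 9.59 to 10.40 in right shunt and 9.18 to 9.32 in right sham arrays. The 3′ minus 5′ difference of the beta-actin control probe sets, a measure of RNA and labelling quality, also followed the chamber: 1.14 to 1.39 in left shunt and 1.31 in left sham, against 1.91 to 2.03 in right shunt and 1.58 to 1.82 in right sham arrays. In left shunt array 3 the adipocyte list averaged 7.51, against 6.18 and 6.64 in the other left shunt arrays, and the neuron list 4.76, against 4.25 and 4.38. That array was the lowest of the left shunt arrays in the macrophage list (7.02, against 7.54 and 7.60). The same held for the fibroblast list (10.35, against 10.73 and 10.64) and the endothelium list (8.89, against 9.09 and 9.05). The part of these differences in the results below was not tested unless values are given beside a result, and in bulk tissue fewer cells of a type and less RNA per cell cannot be told apart.

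Promoter sequences were matched for 71 of the 102 genes in RefSeq (GRCr8, 250 bases before to 50 after the start of the gene). The 4 shown belong to the genes with large differences described below: Kcna2 and Scn7a, lower in the left atrium, Cacng6, higher there, and Scn4b, lower in the left atrium after shunt. Capitals mark letters of a searched motif.
Kcna2 (chr2:197393280-197393579, plus strand): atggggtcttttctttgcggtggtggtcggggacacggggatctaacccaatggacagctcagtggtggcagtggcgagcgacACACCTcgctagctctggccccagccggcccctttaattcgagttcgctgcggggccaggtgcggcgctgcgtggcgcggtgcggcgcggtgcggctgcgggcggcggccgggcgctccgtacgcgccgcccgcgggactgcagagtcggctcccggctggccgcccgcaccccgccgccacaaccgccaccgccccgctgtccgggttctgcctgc
Scn7a (chr3:71846235-71846534, minus strand): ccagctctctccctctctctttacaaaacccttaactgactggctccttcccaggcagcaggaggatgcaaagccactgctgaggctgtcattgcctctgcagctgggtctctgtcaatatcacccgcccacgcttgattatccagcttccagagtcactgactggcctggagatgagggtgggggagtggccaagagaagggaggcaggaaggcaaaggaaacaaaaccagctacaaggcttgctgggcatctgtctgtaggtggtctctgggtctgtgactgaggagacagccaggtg
Cacng6 (chr1:74662704-74663003, minus strand): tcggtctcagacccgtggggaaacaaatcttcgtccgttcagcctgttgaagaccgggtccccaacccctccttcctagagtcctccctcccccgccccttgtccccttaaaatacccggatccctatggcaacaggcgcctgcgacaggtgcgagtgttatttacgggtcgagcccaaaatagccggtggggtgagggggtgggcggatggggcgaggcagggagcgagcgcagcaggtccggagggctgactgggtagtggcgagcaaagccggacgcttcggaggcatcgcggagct
Scn4b (chr8:54343623-54343922, plus strand): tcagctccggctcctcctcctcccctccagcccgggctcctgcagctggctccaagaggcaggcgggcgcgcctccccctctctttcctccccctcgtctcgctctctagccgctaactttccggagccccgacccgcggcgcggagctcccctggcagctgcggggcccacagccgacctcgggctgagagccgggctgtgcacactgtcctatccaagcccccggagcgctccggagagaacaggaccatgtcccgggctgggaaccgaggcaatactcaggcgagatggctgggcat
Searched on both strands were AGGTGT (T-box factors), AGATAA (cardiac zinc finger factors of the GATA family), CACGTG (E-box) and TGACGTCA (CREB). Of these letters, Kcna2 held the T-box motif in reverse complement, ACACCT, with its first base at position -167 relative to the start. AGGTGT was in 9.86% of the 71 channel promoters, against 13.6% of all 33469 RefSeq promoters, and in 3 of 10 promoters of genes lower in left sham atria and 2 of 14 of genes higher there. AGATAA was in 11.3% of the channel promoters and 11.6% of all promoters, CACGTG in 4.23% and 6.42%, and TGACGTCA in 0% and 1.83%. The share of G and C letters had a median of 62.33% in the channel promoters and 51.67% in all promoters. The motif shares were not adjusted for this. A match describes letters and not a bound site.

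The question of which channel genes differ between the atria was asked separately in shunt and in sham rats. In shunt rats 41 of 102 channel genes (40.2%) passed the threshold, an adjusted p of 0.05 in the limma fit over all probe sets, against 37.7% of all 31042 probe sets. Of these, 32 were higher and 9 lower in the left atrium, where 20.2% of all probe sets were higher and 17.4% lower. In sham rats 30 of 102 (29.4%) passed, against 36.1% of all probe sets, with 18 higher and 12 lower in the left atrium, where the background was 20.1% higher and 16.1% lower. Of all 14217 genes, each represented by its probe set with the highest mean, 40.5% passed in shunt and 37.6% in sham rats. The median left minus right difference of the channel genes was 0.17 in shunt and 0.064 in sham rats, against 0.049 and 0.023 over all probe sets. Both comparisons draw on separate arrays but share the spread that the fit estimates for each probe set, so they are not independent. In both, 19 genes passed, 11 higher and 8 lower in the left atrium, and no gene passed in opposite directions. How many of all probe sets passed in both was not counted here. Those higher were Cacnb3, Cacng2, Cacng6, Cacng8, Kcng2, Kcnj10, Kcnj13, Kcnn3, Kcnn4, Kcnq5 and Scn1a, and those lower were Cacna1h, Cacna2d1, Cacna2d3, Kcna2, Kcnip4, Kcnj15, Kcns3 and Scn7a.

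**Figure D1:**
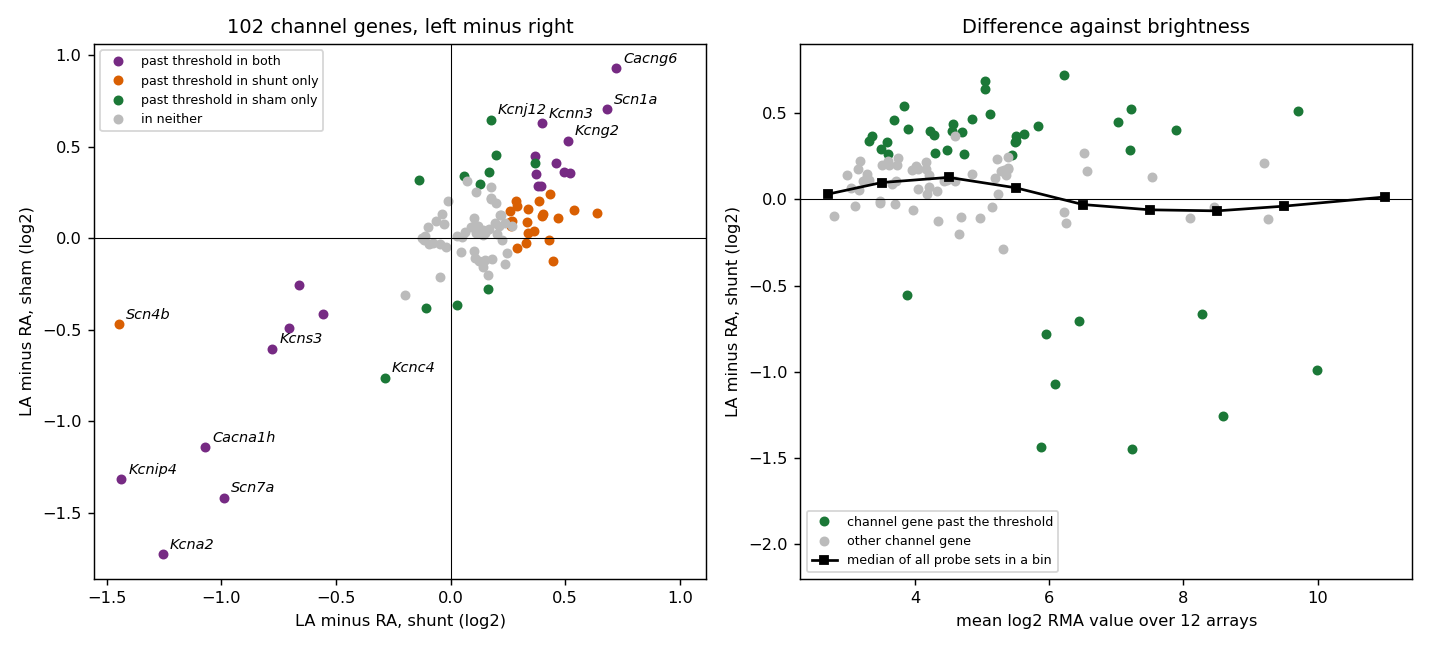
Left panel: left minus right log2 difference of the 102 channel genes in shunt rats (x) and in sham rats (y), coloured by the comparison in which they passed the threshold; Scn4b and Kcnip4 lie lowest in shunt rats, Kcna2 and Scn7a lowest in sham rats, and no gene passed in opposite directions. Right panel: the difference in shunt rats against the mean log2 value over the 12 arrays, with the median of all probe sets in each bin of brightness as a line, which is above 0 in the bins below 6, below 0 in the bins from 6 to 10 and just above 0 from 10.

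Among the voltage-gated potassium channel genes, Kcna2, a delayed rectifier best known from axons, differed most. Its values were 8.06, 7.57 and 7.95 in left shunt atria, against 9.30, 8.85 and 9.20 in right shunt atria, and 7.97, 7.64 and 7.87 in left sham atria, against 9.61, 9.48 and 9.58 in right sham atria. Every left array lay below every right array. The log2 difference was -1.26 (SE 0.14, adjusted p = 4.27e-05) in shunt and -1.73 (SE 0.14, adjusted p = 3e-06) in sham rats, which makes the level 2.39-fold and 3.31-fold lower in the left atrium. A further Kcna2 probe set, which averaged between 4.44 and 4.52 in all 4 groups, did not pass, with differences of 0.03 and 0.04. Kcna3, next to Kcna2 on chromosome 2 with no coding gene between them, did not pass either (0.21 in shunt, 0.12 in sham).

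Kcnip4, a calcium-binding partner of Kv4 channels, gave 5.30, 5.03 and 5.47 in left shunt atria, against 6.64, 6.71 and 6.77 in right shunt atria. In sham rats the values were 5.387, 4.934 and 4.997 in left atria, against 6.40, 6.57 and 6.29 in right atria. The groups did not overlap, and the differences were -1.44 in shunt and -1.32 in sham (SE 0.13 each, adjusted p = 1.22e-05 and 1.25e-05 in the limma fit). Kcnip3, a related subunit, did not pass in either (0.27 and 0.06), and Kcnip1 passed in shunt (0.26, adjusted p = 0.0292, held in 12 of 22 alternatives) and not in sham (0.15), where 1 of its 2 further probe sets was higher (0.28, adjusted p = 0.0134). Of the modifier subunits, which are silent alone and alter Kcnb channels, Kcns3 was lower in the left atrium (-0.78 in shunt, -0.60 in sham). Kcng2 was higher: 9.90, 9.81 and 9.94 in left shunt atria, against 9.41, 9.34 and 9.37 in right shunt atria, and 10.09, 10.04 and 10.05 in left sham atria, against 9.49, 9.46 and 9.63 in right sham atria. Its differences were 0.51 and 0.53 (SE 0.07 each), and 1 of its 2 further probe sets gave 0.85 and 0.82. The groups did not overlap on either, and the other further probe set did not pass (0.22 and 0.13).

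Kcnc4, a fast voltage-gated channel, passed in sham rats only (-0.29 in shunt, -0.76 in sham), and its further probe set ran the other way and passed in both (0.29 and 0.56). Kcnab2, a cytoplasmic beta subunit, was lower in left sham atria with the probe set that represents it (-0.38, adjusted p = 0.0176), with -0.11 in shunt. None of its 3 further probe sets was below 0 in either comparison, 1 was higher in shunt (0.37, adjusted p = 0.0477), and the mean of the Kcnab2 probe sets did not pass in sham (-0.017, adjusted p = 0.873). Kcnab1 was higher in left shunt atria (0.39, adjusted p = 0.0167) and did not pass in sham (0.20). Kcnh3 and Kcnh6, of the ether-a-go-go family, were higher in left shunt atria (0.29 and 0.43) and did not pass in sham (-0.05 and 0.24). Kcne2, a single-span subunit, was higher in left shunt atria (0.64, SE 0.14, adjusted p = 0.00292) and did not pass in sham (0.14), where 1 of its 2 further probe sets was higher (0.31, adjusted p = 0.00987), while Kcne3 (0.15 and -0.12) and Kcne4 (-0.08 and -0.03) passed in neither. Kcnq5, of the M-current family, was higher in both (0.38 and 0.29), as was 1 of its 2 further probe sets (0.33 and 0.35). Kcnc1 passed in neither (-0.04 and 0.13).

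**Figure D2:**
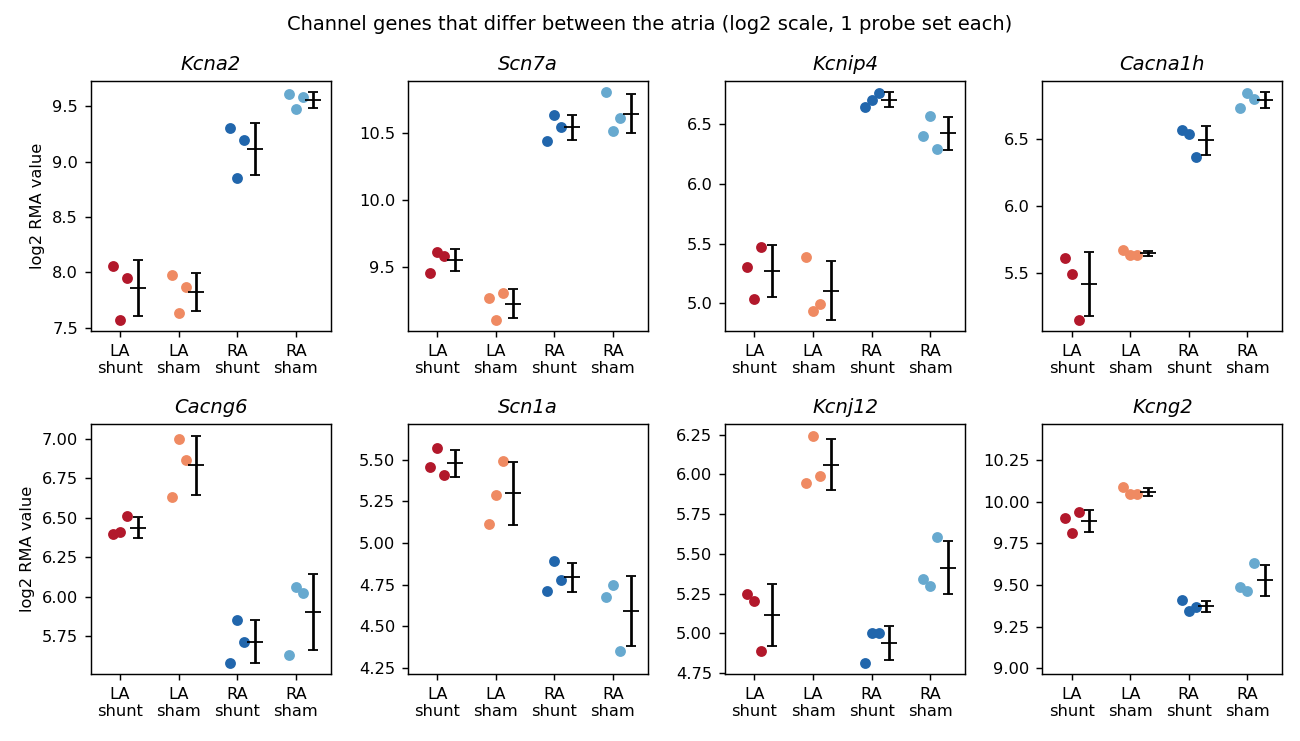
Log2 RMA values of 8 channel genes on each of the 12 arrays, 3 per group, by atrium (LA left, RA right) and operation; black marks are the group mean and SD, and each panel has its own axis. In the Kcna2, Scn7a, Kcnip4 and Cacna1h panels all left arrays lie below all right arrays, in the Cacng6, Scn1a and Kcng2 panels all lie above, and in the Kcnj12 panel the left sham arrays lie above all others.

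Of the 12 inward rectifier genes (Kcnj), 5 passed in shunt rats, against 37.7% of all probe sets, and 6 in sham rats, against 36.1%. Kcnj10 (0.37 and 0.45) and Kcnj13 (0.49 and 0.36) were higher in the left atrium in both, and Kcnj15 was lower (-0.56 and -0.41). Their means over the 12 arrays were 3.36, 5.12 and 3.88, below the median of all probe sets. In shunt rats the calls of Kcnj10, Kcnj13 and Kcnj15 held in 16, 22 and 22 of 22 alternatives, and in sham rats in 21, 22 and 17. Kcnj12, a strong rectifier of the family that carries the resting inward rectifier current, was higher in left sham atria (0.65, SE 0.12, adjusted p = 0.00113) and did not pass in shunt (0.18, 95% interval -0.08 to 0.44). Kcnj4, of the same class, was lower in left sham atria (-0.36, adjusted p = 0.00938), with 0.03 in shunt, where its further probe set was higher (0.49, adjusted p = 0.00145). Kcnj8, a pore of ATP-sensitive channels that is prominent in vessels, was higher in left sham atria (0.29, adjusted p = 0.047), with 0.13 in shunt. The Kcnj8 call held in 12 of 23 alternatives (adjusted p up to 0.172).

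Kcnj11, the pore of the muscle and pancreatic ATP-sensitive channel, depended on the probe set. The one that represents it did not pass (-0.12 in shunt, -0.01 in sham), while its 2 further probe sets were higher in the left atrium, by 0.90 and 0.41 in shunt and by 0.99 and 0.59 in sham rats, all past the threshold. Abcc8, which encodes a regulatory subunit of these channels, was higher in left sham atria (0.40, adjusted p = 0.00808), and Abcc9, which encodes another, was lower in the left atrium in both (-0.33 in shunt, -0.42 in sham).

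Of the 10 leak channel genes (Kcnk), 2 passed in shunt rats, against 37.7% of all probe sets, and 1 in sham rats, against 36.1%. Kcnk1, a weakly rectifying member, was higher in left shunt atria (0.54, adjusted p = 0.00162), with 0.15 in sham, and Kcnk6 was higher in left sham atria (0.32, adjusted p = 0.0478), with -0.14 in shunt. The Kcnk6 call held in 11 of 23 alternatives and was lost without any single sham array (adjusted p up to 0.159). Kcnk2, a stretch-sensitive leak channel, did not pass (0.21 and 0.06), although its further probe set was higher in both (0.57 and 0.41).

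Calcium- and sodium-activated potassium channel genes passed only as higher in the left atrium, 4 of 7 in each comparison. Of all probe sets 20.2% passed as higher there in shunt and 20.1% in sham rats. Kcnn3, a small-conductance channel, gave 4.44, 4.42 and 4.38 in left shunt atria, against 4.04, 3.88 and 4.13 in right shunt atria, and 4.63, 4.44 and 4.51 in left sham atria, against 4.04, 3.88 and 3.78 in right sham atria. The groups did not overlap, and the differences were 0.40 (adjusted p = 0.00418) and 0.63 (adjusted p = 0.00017), with an SE of 0.09 each. Kcnn4, the intermediate-conductance channel, was higher in both (0.37 and 0.35), and Kcnn1 in shunt only (0.43, adjusted p = 0.00645, with -0.01 in sham). Kcnma1, the large-conductance pore, and Kcnmb1, its smooth muscle beta subunit, were higher in left sham atria (0.45 and 0.36) and did not pass in shunt (0.20 and 0.17). The smooth muscle list averaged 7.33 to 7.42 in left shunt and 7.30 to 7.37 in left sham arrays, against 6.88 to 6.98 in right shunt and 6.798 to 7.0002 in right sham arrays, with 4 of its 6 genes higher in the left atrium in each comparison; its part in the Kcnma1 and Kcnmb1 differences was not tested.

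Sodium channel genes moved in both directions. Scn7a, a sodium-sensing channel of the alpha family known from glia, gave 9.46, 9.61 and 9.58 in left shunt atria, against 10.44, 10.63 and 10.55 in right shunt atria, and 9.27, 9.10 and 9.31 in left sham atria, against 10.80, 10.52 and 10.61 in right sham atria. No left array reached a right one. The differences were -0.99 (adjusted p = 1.39e-05) in shunt and -1.42 (adjusted p = 6.92e-07) in sham rats, with an SE of 0.09 each. Scn1a, a pore known from neurons and nodal cells, was higher in the left atrium: 5.45, 5.57 and 5.41 in left shunt, against 4.71, 4.89 and 4.78 in right shunt atria, and 5.11, 5.29 and 5.49 in left sham, against 4.68, 4.75 and 4.36 in right sham atria. Again the groups did not overlap, and the differences were 0.68 and 0.70 (SE 0.12 each, adjusted p = 0.000677 and 0.000455). Scn1a, Scn9a and Scn7a follow each other on chromosome 3 with no other coding gene between them, and Scn9a passed in neither (-0.10 and -0.03).

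Scn10a, the sensory neuron pore, was higher in left shunt atria (0.26, adjusted p = 0.0187), with 0.07 in sham. For Kcna2 and Scn7a, genes of nerve and glia, 1 of 14 measured neuron genes was lower and 4 were higher in left shunt atria, and 1 was lower and 1 higher in left sham atria. Gap43, a growth cone protein, was lower in both (-0.56 in shunt, -1.10 in sham). The 14 neuron genes averaged 4.15 to 4.76 over the arrays, and 0 of 3 measured Schwann and glia genes (Mbp, S100b and Sox10) passed. Shox2, of the sinoatrial node list, was lower in the left atrium (-1.39 and -1.64), and of that list's 7 genes 1 was lower and 2 were higher in shunt rats, and 3 were lower and 1 higher in sham rats. The part of these cell types was not tested.

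Calcium channel pores: Cacna1h, a T-type pore, gave 5.62, 5.50 and 5.15 in left shunt atria, against 6.57, 6.54 and 6.37 in right shunt atria, and 5.67, 5.64 and 5.64 in left sham atria, against 6.73, 6.85 and 6.80 in right sham atria. All left arrays lay below all right ones, with differences of -1.07 and -1.14 (SE 0.11 each, adjusted p = 1.93e-05 and 7.3e-06). A further Cacna1h probe set ran the other way in shunt rats (0.50, past the threshold) and did not pass in sham rats (0.11), so the direction rests on the probe set. Cacna1g, the other cardiac T-type pore, was higher in left shunt atria (0.40, adjusted p = 0.0129) and did not pass in sham (0.12). Cacna1c, the main L-type pore of working muscle, did not pass with the probe set that represents it (-0.11 and 0.01), but a further one was higher in the left atrium by 0.51 in shunt and 0.91 in sham rats. Cacna1f was lower (-0.28) and Cacna1s higher (0.41) in left sham atria, and neither passed in shunt (0.16 and 0.37). The sham calls held in 15 of 22 alternatives for Cacna1f and 12 of 22 for Cacna1s.

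Both alpha2-delta genes, which bring pores to the membrane, were lower in the left atrium. Cacna2d1 differed by -0.66 in shunt and -0.26 in sham (SE 0.08 each), and Cacna2d3 by -0.71 and -0.49 (SE 0.09 each). Of the beta subunits, Cacnb3 was higher in both (0.46 and 0.41). Cacnb2 did not pass (-0.04 and -0.03), while one of its 2 further probe sets was higher (0.37 and 0.65) and the other did not pass (-0.20 and -0.11).

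Of the 8 gamma subunit genes, 3 were higher in shunt and 4 in sham rats, and 0 were lower. Of all probe sets 20.2% were higher in shunt and 20.1% in sham rats. Cacng6, a gamma subunit expressed in striated muscle, gave 6.39, 6.41 and 6.51 in left shunt atria, against 5.58, 5.86 and 5.71 in right shunt atria, and 6.631, 6.9999 and 6.867 in left sham atria, against 5.63, 6.06 and 6.02 in right sham atria. The left arrays were all above the right ones, by 0.72 (adjusted p = 0.000795) and 0.93 (adjusted p = 0.00011), SE 0.12 each. Cacng2 (0.52 and 0.36) and Cacng8 (0.40 and 0.29), known as partners of glutamate receptors in brain, were higher in both, and Cacng3 in sham (0.34, with 0.06 in shunt). The Cacng8 call in sham rats held in 17 of 22 alternatives and was lost with operation by replicate number as a block and without left sham array 1 or 3 or right sham array 1 or 2 (adjusted p up to 0.0895). Cacng6, Cacng8 and Cacng7 are neighbours on chromosome 1, and Cacng7 passed in neither (0.09 and 0.06).

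The 3 Hcn genes passed as higher in the left atrium of shunt rats, as did 20.2% of all probe sets, and in none of the sham comparisons. Hcn2, a pacemaker channel of working muscle, gave 7.25, 7.31 and 7.12 in left shunt, against 6.63, 6.94 and 6.78 in right shunt atria. In sham rats it gave 6.98, 6.86 and 7.05 in left, against 6.96, 7.15 and 7.16 in right atria, and these groups overlapped. The differences were 0.44 (SE 0.10, adjusted p = 0.00312) and -0.12 (adjusted p = 0.342). Hcn3 differed by 0.47 and 0.11, and Hcn4, the main channel of the sinoatrial node, by 0.34 and 0.03. The change of the left minus right difference with the operation did not pass for any of them (0.57 for Hcn2, adjusted p = 0.145, 0.36 for Hcn3, adjusted p = 0.318, and 0.31 for Hcn4, adjusted p = 0.321). Without right shunt array 3, Hcn4 no longer passed (0.27, adjusted p = 0.0619), and without right shunt arrays 2 and 3 neither Hcn3 nor Hcn4 did (adjusted p = 0.116 and 0.354).

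In shunt rats 21 genes passed as higher in the left atrium without passing in sham rats. How many of all genes did so was not counted here. Of these 21, 14 had a mean below the median of all probe sets, as did 74 of all 102 channel genes. Of the 74 channel genes below that median, 22 passed in shunt rats, 21 of them higher. Among all 4870 genes this dim, 29.1% passed in shunt rats and 74% of those were higher in the left atrium, so a surplus of higher calls was not limited to channel genes. The median of all dim probe sets was 3.86 to 3.89 on the right shunt arrays, against 3.92 to 3.99 on the other 9. The median of the 74 dim channel genes was 4.03 to 4.10 on right shunt and 4.03 to 4.11 on right sham arrays. On left shunt arrays it was 4.18 to 4.24 and on left sham arrays 4.26 to 4.28. The part of the shift of all dim probe sets in the calls of dim channel genes was not tested. Of the 28 genes at or above the median, 11 were higher and 8 lower in shunt rats, and 6 higher and 7 lower in sham rats. That is 67.9% in shunt and 46.4% in sham rats, against 46.4% and 46.1% of all 9347 genes this bright.

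Where a gene had several probe sets, they did not always give the same answer. For 36 channel genes there were 57 further probe sets, of which 19 passed in shunt rats, all higher in the left atrium, and 15 in sham rats, 14 of them higher. Of all probe sets 37.7% passed in shunt and 36.1% in sham rats. A gene with several probe sets has more chances to pass if any of them counts, and all genes were not counted in this way. Counting a gene by any of its probe sets, 53 passed in shunt and 39 in sham rats, of which 12 and 9 passed only through a further probe set. Cacna1c, Cacnb2, Kcnj11 and Kcnk2 were among these in both comparisons. The direction was opposite for Cacna1h in shunt and Kcnc4 in sham rats. Where along the transcript each probe set lies was not analysed here.

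**Figure D3:**
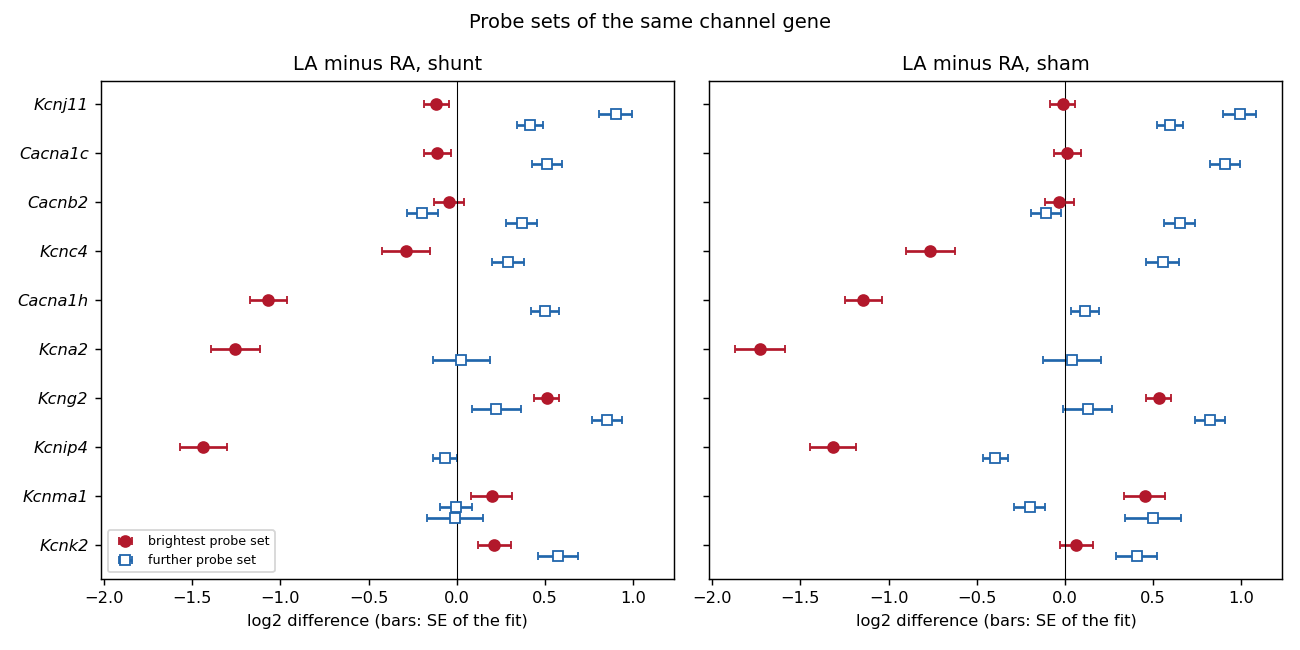
Left minus right log2 difference of every probe set of 10 channel genes in shunt rats (left panel) and sham rats (right panel), with the SE of the limma fit as bars; filled circles are the probe set with the highest mean over the arrays, open squares the further ones. For Kcnj11, Cacna1c and Cacnb2 the circle is near 0 and at least one square lies above 0, and for Cacna1h and Kcnc4 circle and square lie on opposite sides.

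The effect of the shunt was asked in each atrium. In the left atrium 3 of 102 channel genes (2.94%) passed, against 0.751% of all probe sets, with 2 lower and 1 higher. In the right atrium 3 (2.94%) passed, against 2.97% of all probe sets, again 2 lower and 1 higher. At an unadjusted p of 0.05 in the limma fit, 18 of the 102 genes passed in the left and 20 in the right atrium. Of all 31042 probe sets, 4207 and 6127 did. The median change of the channel genes was 0.022 in the left and -0.081 in the right atrium, against -0.0013 and -0.0028 over all probe sets. In the mean of both atria 6 (5.88%) passed, against 3.86% of all probe sets. Of all 14217 genes, represented in the same way, 0.935% passed in the left atrium, 3.97% in the right and 5.25% in the mean. The difference between the effects in the left and right atrium passed for 0 channel genes in the limma fit, against 0.0258% of all probe sets. At an unadjusted p of 0.05 it passed for 20 of the 102, against 4467 of all 31042 probe sets.

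Scn4b, a sodium channel beta subunit that modifies gating, had the largest change of the 102 genes in the left atrium. It gave 5.93, 5.95 and 6.65 in left shunt atria, against 7.27, 7.34 and 7.37 in left sham atria, and 7.14, 7.90 and 7.84 in right shunt atria, against 7.83, 7.79 and 7.77 in right sham atria. In the left atrium all shunt arrays lay below all sham arrays, with array 3 apart from the other shunt arrays, and in the right atrium array 1 alone was low. The change was -1.15 (SE 0.20, adjusted p = 0.0229), or 2.22-fold lower, in the left atrium and -0.17 (95% interval -0.61 to 0.26, adjusted p = 0.695) in the right. The difference between these effects was -0.98 (SE 0.28, adjusted p = 0.188) and did not pass.

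Left shunt array 3 is the one with the highest adipocyte and neuron lists. Of the right shunt arrays, array 1 was the lowest in the ventricular list, with 9.59 against 10.40 and 10.31 in the other right shunt arrays. The part of either in the Scn4b values was not tested. Between the atria Scn4b differed by -1.45 (SE 0.20, adjusted p = 0.000189) in shunt and by -0.47 (adjusted p = 0.0857) in sham rats. The call in the left atrium held in 16 of 22 alternatives. It was lost without left shunt array 1 or 2 (adjusted p = 0.0719 and 0.0769). It was also lost without any single left sham array and when the fit held left arrays alone (adjusted p up to 0.124 over all alternatives). Scn2b, next to Scn4b on chromosome 8, did not pass (-0.09 in the left and 0.06 in the right atrium), nor did Scn3b (0.34 and 0.18).

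**Figure D4:**
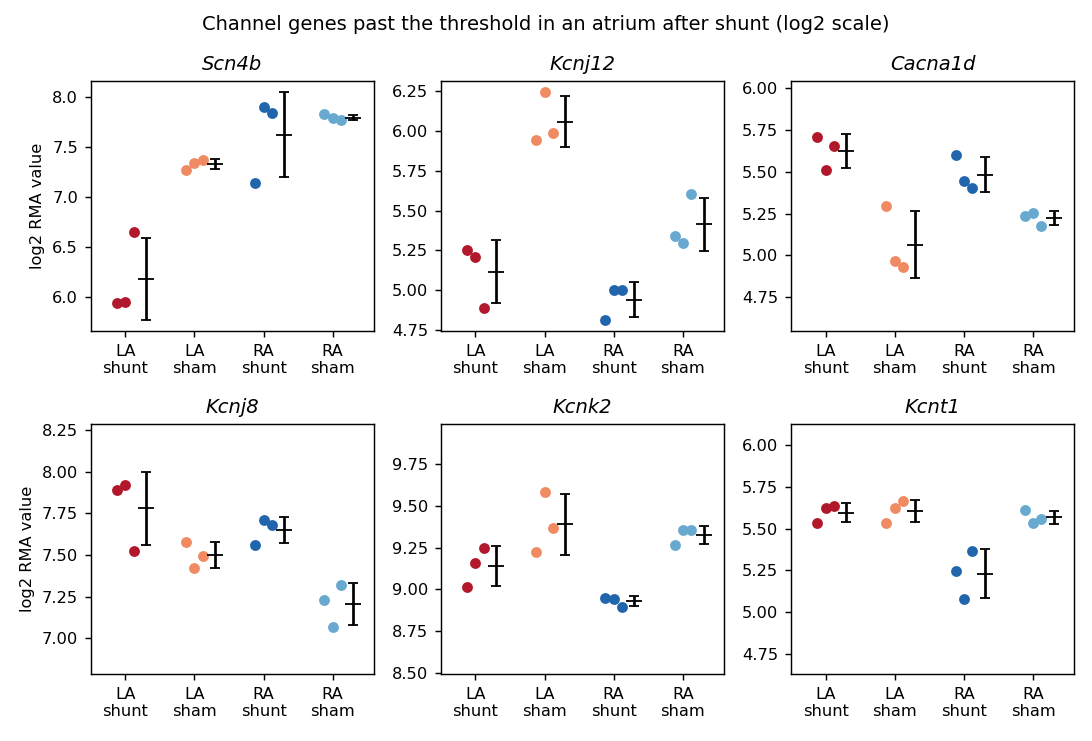
Log2 RMA values of the 6 channel genes past the threshold in either atrium after shunt, on each of the 12 arrays, 3 per group, with the group mean and SD in black and an axis for each panel. Scn4b is low in left shunt arrays alone apart from array 1 of right shunt, Kcnj12 is lower after shunt in both atria, and Kcnt1 is lower in right shunt arrays alone.

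Kcnj12 was lower after shunt in the left atrium: 5.25, 5.21 and 4.89 in left shunt, against 5.95, 6.24 and 5.99 in left sham atria. In the right atrium it gave 4.812, 5.002 and 5.002 after shunt, against 5.34, 5.30 and 5.60 after sham. Shunt and sham arrays did not overlap in either atrium. The change was -0.95 (SE 0.12, adjusted p = 0.00377), or 1.93-fold lower, in the left atrium, -0.47 (adjusted p = 0.0535, not past the threshold) in the right and -0.71 (SE 0.08, adjusted p = 0.000728) in the mean. It was the one channel gene whose change in the mean of both atria remained past the threshold in all 21 alternative settings that tested it. The left atrial call was lost when the fit held left arrays alone (adjusted p = 0.0737). Kcnj4, of the same class of rectifiers, changed by 0.13 in the left and -0.26 in the right atrium and did not pass.

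Cacna1d, the L-type pore of nodal and atrial cells, was higher after shunt in the left atrium. Its values were 5.71, 5.51 and 5.66 in left shunt, against 5.30, 4.96 and 4.93 in left sham atria, and 5.60, 5.44 and 5.40 in right shunt, against 5.24, 5.25 and 5.18 in right sham atria. The groups did not overlap in either atrium, and the change was 0.56 (SE 0.10, adjusted p = 0.0274) in the left, 0.26 (adjusted p = 0.179) in the right and 0.41 (adjusted p = 0.00765) in the mean. The 2 further Cacna1d probe sets did not pass in the left atrium (-0.24 and 0.18), and the mean of its probe sets changed by 0.17 (adjusted p = 0.267). The left atrial call of Cacna1d held in 15 of 21 alternatives. Among others, it was lost without left shunt array 1, without left sham array 2 or 3, and when the fit held left arrays alone. The other L- and T-type pores of the heart did not pass after shunt: Cacna1c changed by -0.14 and -0.01, Cacna1g by 0.18 and -0.10 and Cacna1h by -0.23 and -0.30 in the left and right atrium. A further Cacna1h probe set was lower in the right atrium (-0.35, adjusted p = 0.0369).

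In the right atrium Kcnj8 was higher, with 7.56, 7.71 and 7.68 after shunt, against 7.23, 7.07 and 7.32 after sham, a change of 0.44 (SE 0.11, adjusted p = 0.0452). In the left atrium it gave 7.89, 7.92 and 7.53 after shunt, against 7.58, 7.42 and 7.50 after sham, where the groups overlapped through left shunt array 3 (0.28, adjusted p = 0.272). Its partner gene Abcc9 did not pass (-0.02 in the right and 0.08 in the left atrium). Beside Kcnj8 in the right atrium, 3 of 7 macrophage genes, 1 of 6 endothelial genes and 0 of 6 smooth muscle genes passed as higher after shunt. So did 4 of 7 ventricular, 1 of 8 fibroblast, 1 of 8 skeletal muscle and 1 of 14 neuron genes. In the atrial, adipocyte and sinoatrial node lists 0 of 7 genes each passed as higher, and 0 of 3 Schwann and glia genes. Of all 31042 probe sets 591 passed as higher there. The part of these lists in the Kcnj8 change was not tested.

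Kcnk2 was lower in the right atrium, with 8.95, 8.94 and 8.89 after shunt, against 9.26, 9.36 and 9.36 after sham (-0.40, SE 0.09, adjusted p = 0.0418). The left atrium gave 9.02, 9.16 and 9.25 after shunt, against 9.22, 9.59 and 9.37 after sham, which overlapped (-0.25, adjusted p = 0.257), and the mean change was -0.32 (adjusted p = 0.0178). Its further probe set did not pass in the right atrium (-0.22, adjusted p = 0.306). Kcnt1, a sodium-activated channel, was lower in the right atrium, with 5.24, 5.08 and 5.37 after shunt, against 5.61, 5.54 and 5.56 after sham (-0.34, SE 0.08, adjusted p = 0.0444). In the left atrium it gave 5.53, 5.62 and 5.63 after shunt, against 5.54, 5.62 and 5.66 after sham, a change of -0.01, and the difference between the atria did not pass (0.33, adjusted p = 0.243). The calls of Kcnj8, Kcnk2 and Kcnt1 in the right atrium held in 10, 12 and 6 of 22 alternatives, and leaving out right shunt array 2 ended all 3 (adjusted p = 0.154, 0.127 and 0.165).

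**Figure D5:**
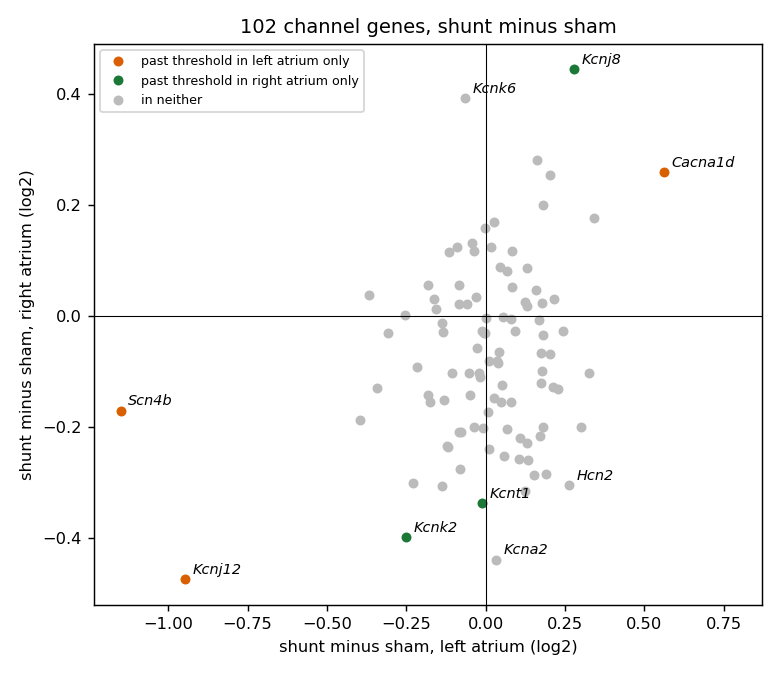
Shunt minus sham log2 difference of the 102 channel genes in the left atrium (x) and the right atrium (y), coloured by the atrium in which they passed the threshold. Scn4b and Kcnj12 lie farthest to the left, Cacna1d farthest to the right and Kcnj8 at the top, and no gene passed in both atria.

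Cacna2d3 passed in the mean of both atria alone (-0.24, adjusted p = 0.0491), with -0.34 in the left and -0.13 in the right atrium. This call held in 7 of 22 alternatives and was lost without any single array other than left shunt array 3. Cacna2d1 changed by -0.37 in the left atrium (adjusted p = 0.0599) and by 0.04 in the right. Other genes with larger changes in the right atrium did not pass: Kcna2 changed by -0.44 (adjusted p = 0.108), Kcnk6 by 0.39 (adjusted p = 0.0887) and Hcn2 by -0.31 (adjusted p = 0.103). In the left atrium Cacng6 changed by -0.39 (adjusted p = 0.176) and Scn7a by 0.32 (adjusted p = 0.133). Kcng2 changed by -0.18 in the left and -0.15 in the right atrium, and Kcnj11 by -0.13 and -0.03.

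Among the 12 channel genes that the rule left out, 2 passed after shunt in the left atrium, Kcnip2 (1.36) and Kcnd2 (-0.70), and 1 in the right, Kcna5 (-0.92). Of all probe sets 0.751% passed in the left and 2.97% in the right atrium. Between the atria 7 of the 12 passed in shunt and 5 in sham rats, against 37.7% and 36.1% of all probe sets. Of 24 listed partners and regulators of channels 21 were measured. After shunt 0 of these passed in either atrium in the limma fit, against the same 0.751% and 2.97% of all probe sets. At an unadjusted p of 0.05, 5 passed in the left and 7 in the right atrium, against 4207 and 6127 of all 31042 probe sets. The fibroblast growth factor homologous genes Fgf12 and Fgf13, which bind sodium channels, were lower in the mean of both atria (-0.30 and -0.26). Between the atria 10 of the 21 passed in shunt rats, 4 higher and 6 lower, and 9 in sham rats, 4 higher and 5 lower. The scaffold Akap9 was lower in the left atrium (-0.74 in shunt, -0.63 in sham), as were Ank3 (-0.42 and -0.34), an ankyrin that anchors sodium channels, and Dlg1 (-0.51 and -0.33). Rrad, which binds calcium channel beta subunits, was higher (0.31 and 0.51).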

How the data were processed

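Total RNA from column extraction (10 ug per array) was labelled and hybridised to 1-colour Affymetrix arrays, per the labels' protocols. The authors deposited log2 values per probe set. RMA produced them, per the submitters' processing notes. The RMA version is not given in the sources used here. RMA equalises the arrays, so a shift shared by most transcripts is not visible. Replicates are arrays of different pools, called biological replicates by the series' design text, and whether pools shared animals or a surgery day is not stated, so p-values measure the spread between these arrays.

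Of 31099 probe sets, 57 controls were left out. The remaining 31042 were fitted as deposited with limma 3.58.1 in R 4.3.3 (lmFit, contrasts.fit and eBayes, 1 mean per group over 12 arrays, no filter), two-sided, with Benjamini-Hochberg adjustment over all of them and a threshold of 0.05. SE and intervals come from this fit. The annotation named 1 gene for 20826 probe sets, several for 436 and none for 9780. All 102 symbols matched current RefSeq by gene ID. The fit was tested on simulated data. The members and all lists were chosen with earlier results of these data known. Named genes were a core cardiac list (30 of 37 measured), the genes past the threshold (12 largest each way where over 24 passed) and the member of each subfamily with the highest mean. Genes named outside that rule were chosen after their values were seen. Alternatives covered the normalization, dim probe sets, variance model, array weights, samples fitted, replicate block, probe-set choice and left-out arrays. Arrays were few, which limits the precision. The result of 1 further promoter motif is not reported here.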

Additional observations from a re-analysis of the deposited data

How the results depend on the processing

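Channel genes past the threshold numbered 3 in the right and 3 in the left atrium after shunt, 6 in the mean of both, 0 for the difference between the atria, and 41 in shunt and 30 in sham rats between the atria. Leaving out 1 array at a time gave 0 to 6 in the right atrium (6 without left shunt replicate 3, 0 or 1 without any single array of the right atrium or of left sham), 1 to 5 in the left (1 without left shunt replicate 1, left sham replicate 2 or left sham replicate 3, 5 without left shunt replicate 3), 3 to 7 in the mean (3 without right sham replicate 2), 0 to 0 for the difference, 32 to 42 in shunt and 23 to 31 in sham rats. Without dim probe sets, which leaves 28 of the 102 genes, 19 passed in shunt and 14 in sham rats. Renewed quantile normalization gave 1 in the right atrium, array weights 11 there and 10 in the mean, trended robust variances 5 in the left, and fits of the compared groups alone 0 in the left. Testing 1 probe set per gene gave 6 in the right atrium and the mean of a gene's probe sets 5. With right shunt arrays 2 and 3 left out, 0 passed in the right atrium, 3 in the mean and 21 between the atria in shunt rats. With right shunt array 1 and left shunt array 3 left out, chosen after the data were seen, 1 passed in the right atrium, 1 for the difference (Scn4b, for which these were the lowest right and the highest left shunt arrays, so that the choice favoured the call) and 27 between the atria in shunt rats. Averaging probe sets turned Kcnj11 to 0.40 in shunt and 0.53 in sham, Cacna1c to 0.20 in shunt and Cacnb2 to 0.17 in sham rats. Of the calls between the atria, 21 of 41 in shunt and 18 of 30 in sham rats held in every setting that tested them, other than the one chosen after the data were seen, 12 of them in both: Cacng2, Cacng6, Kcng2, Kcnj13, Kcnn4 and Scn1a higher and Cacna1h, Cacna2d3, Kcna2, Kcnip4, Kcns3 and Scn7a lower in the left atrium. The cause of these changes was not tested. The replicate numbers were not treated as pairing samples: left and right arrays of the same operation and number had residual correlations of 0.08 to 0.15, 3 of 6 over 0.1, against -0.09 to -0.01 for other numbers, and among the 3 arrays of the other atrium after the same operation, 12 of 12 arrays correlated best with their own number, a hint from the data alone that did not extend to arrays of the other operation. The number as a block gave 2, 3, 6 and 0 after shunt (right, left, mean, difference) and 40 in shunt and 28 in sham rats, and operation by number as a block 0, 41 and 30 for the difference, shunt and sham.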
